A study of Leucocroton havanensis with 4 samples.

Results

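The contigs described here were abundant in shoots of Leucocroton havanensis, stood 4-fold to 32-fold lower in the shoot library with nickel than in the shoot library without nickel, and lay within 2-fold in the root libraries. They numbered 50 of the 65936 contigs of the series. A contig is an assembled transcript sequence, and levels are given as CPM, the read count scaled to a library total of 1000000. Members had a mean of at least 10 CPM over the shoot libraries, a shoot level with nickel at most 1/4 and above 1/32 of that without nickel, a shoot level without nickel under 100-fold that of root, and a root level with nickel between 0.5 and 2 times that without. A value of 0.1 CPM was added before each of these ratios. The rule used all 4 libraries, so the levels and ratios of the members below are descriptions and carry no test.

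The plants were in vitro plantlets, grown on agar medium for 6 weeks after germination. Each organ, root or shoot, was sampled from plantlets labelled without nickel and from plantlets labelled with nickel, which gave 4 groups of 1 polyA RNA library each. The dose given for the medium was 500 mg/L NiSO4, and it is taken to apply to the libraries labelled with nickel. The shoot library with nickel is labelled as a re-analysis of an earlier library and the other 3 are not, so in shoot the effects of nickel and of library origin cannot be told apart. The labels do not state how many plantlets went into each library. The libraries held 84917997 reads for the shoot without nickel, called the nickel-free shoot, and 98108920 for the shoot with nickel, called the nickel shoot. They held 59802565 reads for the nickel-free root and 55660570 for the nickel root. With 1 library per group no difference had a replicate check, and all intervals are exact 95% intervals that cover counting error only. In bulk tissue, fewer cells of a type and less RNA per cell cannot be told apart.

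Leucocroton havanensis belongs to the Euphorbiaceae, grows on the nickel-rich serpentine soils of Cuba and is a nickel hyperaccumulator. Such plants take up nickel by the root, load it into the xylem and store it in shoot tissue, mostly in vacuoles and bound to small organic ligands. Divalent cation transporters of the root, exporters of the ferroportin family and chelators such as citrate, histidine and nicotianamine have been studied in this trait. The identifiers used here carry no gene names, so no member is assigned a function and the tissue labels were not checked against marker genes.

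Few abundant contigs were so much lower in the shoot with nickel. A mean of at least 10 CPM over the shoot libraries was reached by 12620 contigs, of which 77 (0.61%) were at least 4-fold lower with nickel and 134 (1.06%) at least 4-fold higher. This balance turned with the scaling of library size, to 118 lower and 101 higher by TMM and 140 lower and 85 higher by DESeq2 size factors. Of the 77, 65 were less than 32-fold lower, 63 of these were under 100-fold above root without nickel, and 50 of these lay within the 2-fold bounds in root. In root, 25 of the 12620 (0.198%) were at least 4-fold lower with nickel and 7 (0.0555%) at least 4-fold higher. The members were chosen by these same counts, that is, selected on the nickel ratio in shoot, the nickel ratio in root, the organ ratio without nickel and the shoot level. The limits other than the nickel ratio in shoot were met by 12252 contigs, and these serve as the comparison for the members from here on. By the same limits, 95 of them (0.775%) were 4-fold to 32-fold higher in the shoot with nickel, and 8 lay 32-fold or more below the shoot without nickel. Against the 50 members, that order turned as well, with 80 lower and 69 higher by TMM and 96 lower and 56 higher by DESeq2 size factors.

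**Figure D1:**
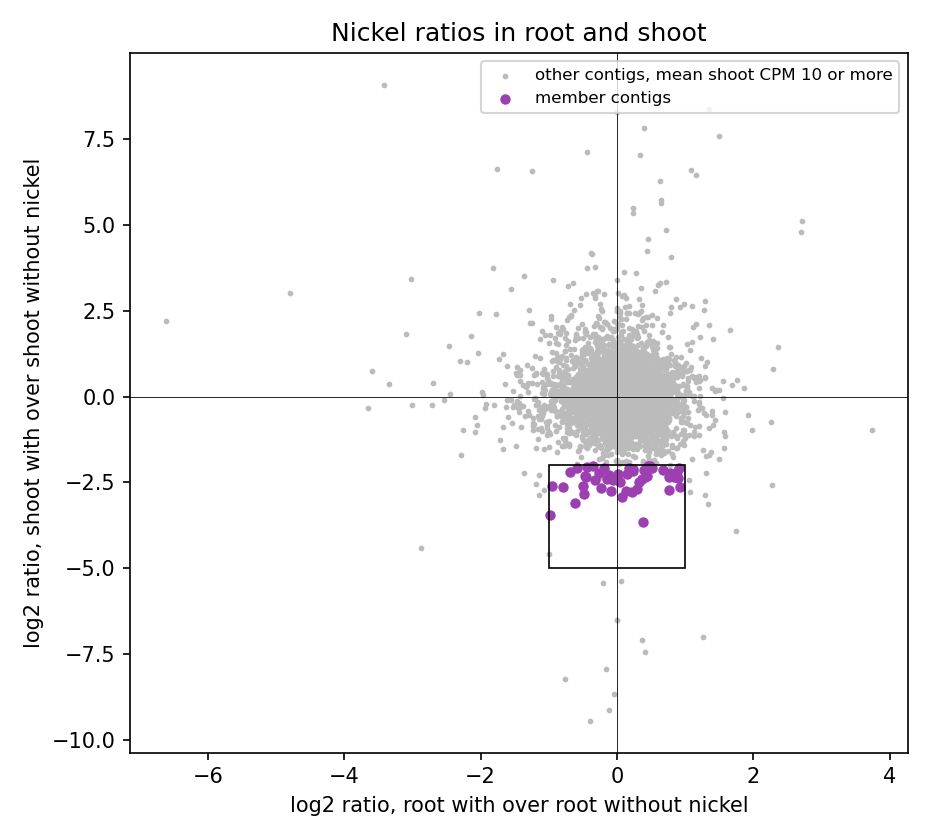
Log2 ratio of shoot with over shoot without nickel (y axis) against log2 ratio of root with over root without nickel (x axis) for the 12620 contigs of 10 CPM or more in the shoot mean, 1 point per contig, with 0.1 CPM added. The black frame marks the limits on the 2 ratios; the 50 members (purple) lie in its upper part, between -2.01 and -3.66 on the y axis, and a contig left out by the limit on shoot over root is also inside it.

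The members were mostly close to the 4-fold limit. In the shoot with nickel 24 were 4-fold to 5-fold lower, 11 were 5-fold to 6-fold lower, 12 were 6-fold to 8-fold lower and 3 were 8-fold to 16-fold lower. None was 16-fold to 32-fold lower. Among the 12252 comparison contigs, 11 (0.0898%) were at least 8-fold lower, which is these 3 members and the 8 contigs beyond 32-fold. The median log2 ratio of the members was -2.35, a 5.09-fold lower level, against a median of 0.089 over the comparison contigs. The smallest and largest differences were 4.03-fold and 12.6-fold. The counting interval lay wholly beyond 4-fold for 40 members and reached below 4-fold for 10.

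Several contigs lay just beyond the limits. The member nearest to the 4-fold limit had 98.8 CPM in shoot without and 24.5 CPM with nickel, and the nearest contig outside had 43.1 and 10.8 CPM, 3.98-fold lower. At the deep end, the member with the largest difference was 12.6-fold lower, and the next contig meeting the other limits was 41.6-fold lower, with 32.1 CPM in shoot without and 0.673 CPM with nickel. Between these 2 contigs the scale was empty. The lowest mean shoot level among the members was 10.01 CPM, and the nearest contig outside had 9.97 CPM. In root, the members reached 1.91-fold higher and a ratio of 0.508, and the nearest contigs outside stood at 2.08-fold higher and a ratio of 0.479. The highest shoot-to-root ratio without nickel was 89.1 among the members and 134.7 in the nearest contig outside. All ratios in this paragraph include the added 0.1 CPM. Without it, the member with the root ratio of 0.508 had 0.484, and the member with 89.1 had 194.5. Both members thus met these limits only with the added value.

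In the shoot without nickel the members ranged from 16.3 to 5118 CPM with a median of 38.0 CPM. In the shoot with nickel they ranged from 2.16 to 1163 CPM with a median of 7.29 CPM, and 33 of the 50 lay under 10 CPM. The root levels spread more widely, from 0.084 to 2374 CPM without nickel (median 34.4 CPM) and from 0.108 to 3784 CPM with nickel (median 43.9 CPM). Over the comparison contigs the medians were 27.8 CPM in nickel-free shoot, 29.5 CPM in nickel shoot, 29.9 CPM in nickel-free root and 30.5 CPM in nickel root. The median of the members departed most from that of the comparison contigs in the shoot with nickel. The rule favours this, because it requires a level there at most 1/4 of that without nickel. The shoot with nickel was the lowest of the 4 libraries in 43 of the 50 members, and in 21.6% of the comparison contigs. The shoot without nickel was the highest library in 30 members, and in 19.2% of the comparison contigs. With TMM these were 43 members beside 35.7% of the comparison contigs for the lowest, and 33 members beside 37.2% for the highest. DESeq2 size factors gave 43 and 33 members beside 41.7% and 44.2%. The rule fixes the order of the shoot libraries, so these counts describe only where root lay beside them.

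**Figure D2:**
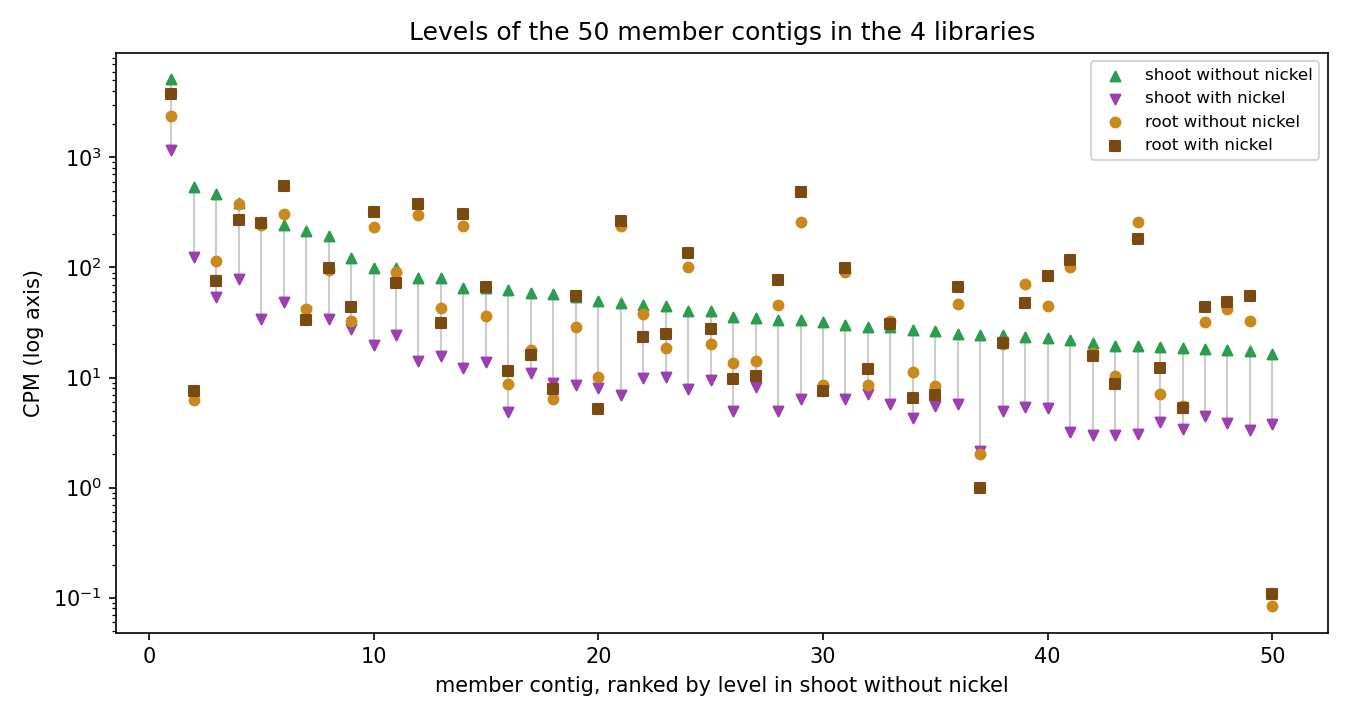
CPM (log axis) of the 50 members in the 4 libraries, ranked by the level in shoot without nickel, 1 mark per library and contig; grey lines join the shoot libraries. Shoot with nickel (downward triangles) is the lowest mark in 43 members, and the root marks lie above, between or below the shoot marks.

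One member held a large part of the reads. The members together took 0.915% of the reads of nickel-free shoot (exact 95% binomial interval 0.913% to 0.917%) and 0.191% of those of the nickel shoot (0.190% to 0.192%). In root they took 0.619% of the reads without nickel (0.617% to 0.621%) and 0.830% with nickel (0.828% to 0.832%). The most abundant member had 5118 CPM in nickel-free shoot, 1163 CPM in nickel shoot, 2374 CPM in nickel-free root and 3784 CPM in nickel root. It was 4.40-fold lower in the shoot with nickel (95% interval 4.37 to 4.43) and 1.59-fold higher in the root with nickel (1.58 to 1.60). Its reads were 55.9% of the members' reads in shoot without nickel and 38.3% in nickel-free root. Without it, the summed level of the other 49 members was 4031 CPM in nickel-free shoot, 747.6 CPM in nickel shoot, 3820 CPM in nickel-free root and 4517 CPM in nickel root. The summed level was thus 5.39-fold lower in the shoot with nickel without this contig and 4.79-fold lower with it. Shoot and root without nickel, and root with nickel, lay close together in the sum of the 49, and the shoot with nickel lay below all of them. The rule set the lower shoot with nickel and bounded the root ratio of each member. This sum is not the profile of single members, whose log2 ratio of shoot over root without nickel ran from -3.74 to 6.48.

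**Figure D3:**
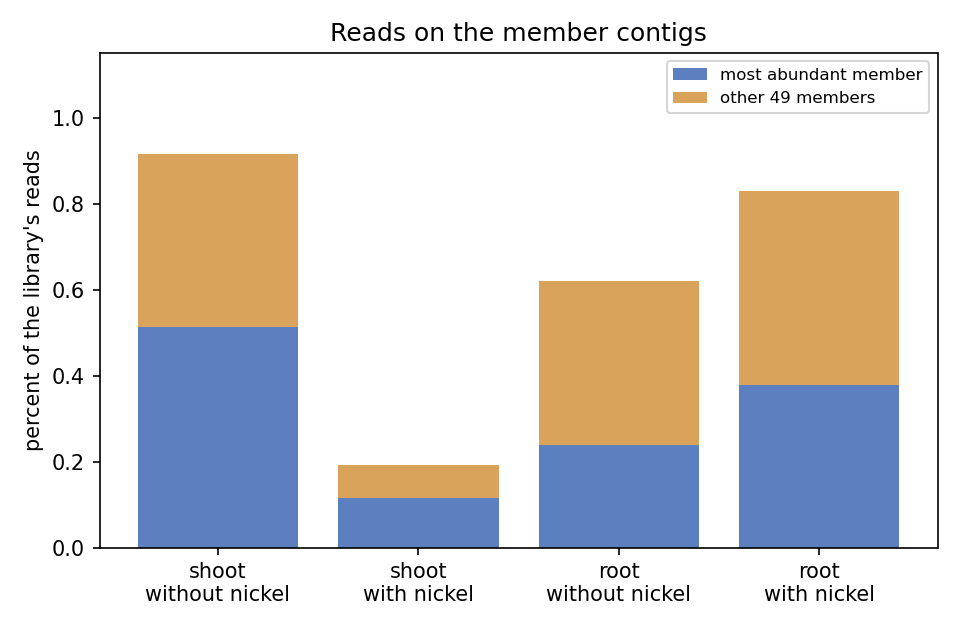
Share of each library's reads (percent) that fell on the members, split into the most abundant member and the other 49, with 1 library per bar and no error bar. The shares are 0.915% in nickel-free shoot, 0.191% in nickel shoot, 0.619% in nickel-free root and 0.830% in nickel root.

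At least 100 CPM in the shoot without nickel was reached by 9 members, and these had unlike levels in root. The third most abundant had 462.2 CPM in nickel-free shoot, 54.2 CPM in nickel shoot, 114.8 CPM in nickel-free root and 74.97 CPM in nickel root. It was 8.52-fold lower in the shoot with nickel (95% interval 8.28 to 8.77) and 0.653 times as high in the root with nickel (0.628 to 0.679), so it was lower with nickel in both organs. The fourth had 386.0, 78.1, 373.6 and 270.5 CPM in the same order of libraries, with the root and the shoot near 1 level without nickel. The sixth had 245.6, 48.3, 307.0 and 547.0 CPM, and its root level was 1.78-fold higher with nickel (95% interval 1.75 to 1.81) while its shoot level was 5.09-fold lower (4.93 to 5.25). With nickel this contig stood 11.3-fold higher in root than in shoot. The eighth had 191.7, 34.1, 95.6 and 98.9 CPM, and its root interval of 0.997 to 1.07 held 1. The ninth had 122.0, 27.8, 32.9 and 44.0 CPM. In all 9 the shoot with nickel was lower by rule, whereas the root went either way.

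Members occurred in every class of abundance. They were 23 of 4060 comparison contigs at 10 to 20 CPM (0.567%), 16 of 4755 at 20 to 50 CPM (0.336%), 3 of 2037 at 50 to 100 CPM (0.147%) and 8 of 1400 at 100 CPM or more (0.571%), by mean shoot level. The contigs higher by 4-fold to 32-fold numbered 35, 35, 17 and 8 in the same classes. By column totals the lower and the higher contigs were thus equal in number at 100 CPM or more and the higher ones were more in the other classes. DESeq2 size factors gave more lower than higher contigs in every class, and TMM did so at 10 to 20 CPM (35 lower, 22 higher) and at 100 CPM or more (9 lower, 8 higher). Across the 50 members, the log2 ratio in shoot and the mean shoot level had a Pearson's r of 0.10 and a Spearman's rho of -0.073, a description over contigs that share the same libraries.

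The root level placed the members in different positions relative to the shoot. Both root libraries lay between the shoot libraries in 23 members, above both in 18 and below both in 4, and in the other 5 they lay on either side of a shoot level. Of the 12252 comparison contigs, both roots lay above both shoots in 5347 and below both in 4549. In the other 2356 they lay between the shoots or on either side of a shoot level. The rule sets the shoot libraries of the members at least 4-fold apart, which leaves more room for roots between them. In the 23, the medians were 45.1 CPM in nickel-free shoot, 9.52 CPM in nickel shoot, 18.7 CPM in nickel-free root and 20.6 CPM in nickel root. In the 18, root was far higher, with medians of 95.5 CPM without and 108.6 CPM with nickel, beside 29.4 CPM in shoot without and 5.77 CPM in nickel shoot. In the 4, the median root levels were 4.17 CPM without and 4.23 CPM with nickel, beside 41.1 CPM in shoot without and 6.33 CPM in nickel shoot. The median shoot difference was 4.94-fold, 5.09-fold and 5.37-fold in these sets. The rule limited the shoot difference, and 47 of the 50 members lay at 4-fold to 8-fold, so medians this close say nothing about the root level.

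Without nickel, 22 members were at least 2-fold higher in shoot than in root, where 19.5% of the comparison contigs were. Another 11 were at least 2-fold higher in root (18.7% of the comparison contigs), and 17 lay within 2-fold (61.8%). The level of nickel-free shoot entered both the rule and this ratio, so these counts carry the selection. With nickel, 3 members were at least 2-fold higher in shoot (20% of the comparison contigs) and 33 were root-biased to the same extent (15.8%). The other 14 lay within 2-fold (64.1%). A shift towards root is built into the rule, because a 4-fold lower shoot and a root within 2-fold lower the shoot-to-root ratio by at least 2-fold. The median log2 ratio of shoot over root was 0.88 without nickel and -1.65 with nickel in the members, against -0.11 and -0.049 in the comparison contigs. Of the 22 shoot-biased members, with nickel 13 lay within 2-fold of root, 6 were root-biased and 3 were shoot-biased by the same 2-fold limit. Of the 17 members near equality, 16 were at least 2-fold higher in root with nickel. All 11 root-biased members were root-biased with nickel as well. By TMM and by DESeq2 size factors, 26 members each were shoot-biased without nickel, beside 2868 and 3040 of the 12252 comparison contigs.

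**Figure D4:**
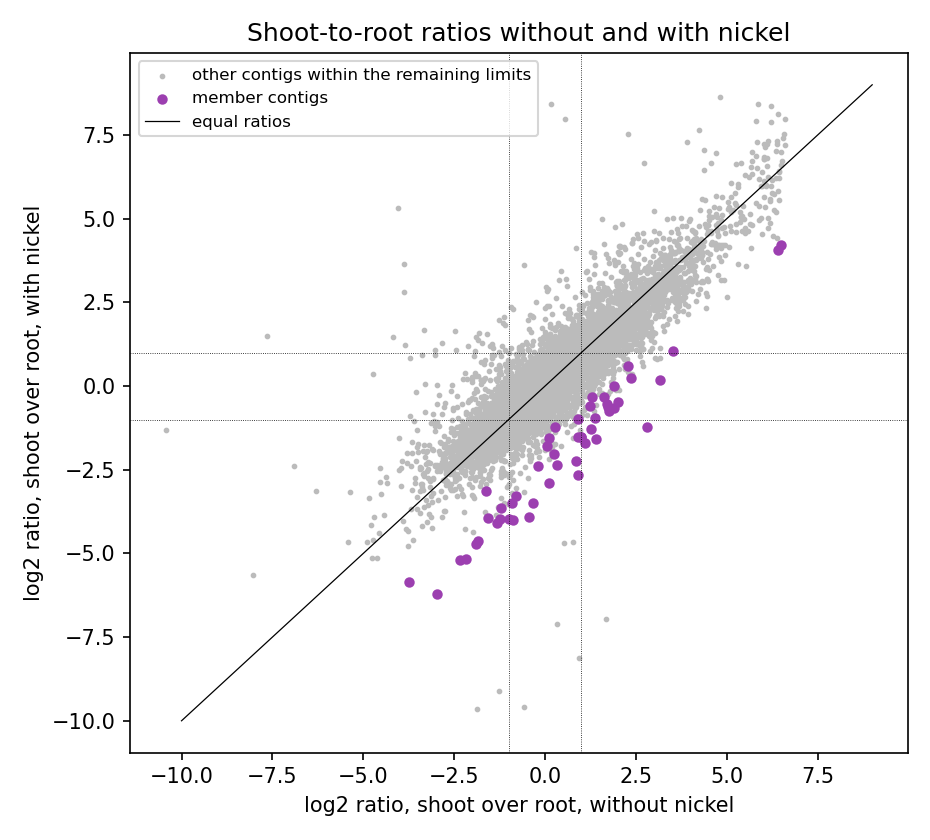
Log2 ratio of shoot over root with nickel (y axis) against that without nickel (x axis), with 0.1 CPM added, for the 50 members (purple) and the other comparison contigs (grey), 1 point per contig. The line marks equal ratios and the dotted lines mark 2-fold; the members run parallel to the line and below it, with medians of 0.88 on the x axis and -1.65 on the y axis.

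The 95 contigs that were higher in the shoot with nickel had another organ profile. Without nickel 57 of them were root-biased and 22 shoot-biased by 2-fold or more, whereas the members were more often shoot-biased than root-biased. With nickel 55 of the 95 were shoot-biased and 5 root-biased. Their median levels were 7.23 CPM in nickel-free shoot, 39.4 CPM in nickel shoot, 18.5 CPM in nickel-free root and 16.1 CPM in nickel root. The direction of the shoot ratio that chose each set also bears on these counts, and the difference between the sets was not tested. The 8 contigs at least 32-fold lower had median levels of 57.7 CPM in nickel-free shoot, 0.076 CPM in nickel shoot, 43.2 CPM in nickel-free root and 47.1 CPM in nickel root. Of these 8, 5 (62.5%) lay within 2-fold of root without nickel, near the 61.8% of the comparison contigs. Of the 50 members, 17 (34%) did.

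In 4 members only the shoot with nickel stood apart, in that shoot without nickel lay within 2-fold of both roots and shoot with nickel at least 4-fold below both. The same pattern was met by 12 of the comparison contigs (0.0979%), and these 12 include the 4 members. The pattern itself requires a shoot at least 2-fold lower with nickel, so the rule favours it. The most abundant of the 4 was Lhav_v2_contig_15984, with 258.8 CPM in nickel-free shoot, 240.8 CPM in nickel-free root, 254.8 CPM in nickel root and 34.2 CPM in nickel shoot. The other libraries thus lay close together and the shoot with nickel was 7.57-fold below the shoot without (95% interval 7.30 to 7.85). Its root ratio was 1.06 (95% interval 1.03 to 1.08). The other 3 had 20.7 to 28.5 CPM in nickel-free shoot and 2.98 to 5.76 CPM in nickel shoot, and 15.7 to 32.9 CPM over both roots.

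In 3 members it was the shoot without nickel that stood apart, at least 4-fold above both roots, with shoot with nickel within 2-fold of both. The pattern was met by 6 of the comparison contigs (0.049%), the 3 members included. It too requires a shoot at least 2-fold lower with nickel and is favoured by the rule. The most abundant of the 3 was Lhav_v2_contig_2230, with 214.0 CPM in nickel-free shoot, 39.5 CPM in nickel shoot, 41.7 CPM in nickel-free root and 33.2 CPM in nickel root. The shoot with nickel and both roots lay near 1 level, and the shoot without nickel was 5.42-fold above the shoot with nickel (95% interval 5.24 to 5.62). Its root ratio was 0.796 (95% interval 0.749 to 0.846). Of the other two, the first had 57.7 CPM in nickel-free shoot, 8.92 CPM in nickel shoot, 6.404 CPM in nickel-free root and 7.91 CPM in nickel root. The last had 49.4, 7.99, 10.2 and 5.23 CPM in the same order, and its root ratio of 0.514 lay close to the lower bound of the rule.

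In 6 members the order of the organs turned, from at least 2-fold higher in shoot without nickel to at least 2-fold higher in root with nickel. This was met by 7 of the comparison contigs (0.0571%), which include the 6 members. With root held within 2-fold, a turned order requires a shoot at least 2-fold lower with nickel. The rule therefore favours this pattern as well. The most abundant member was one of the 6. Another was the member with the largest shoot difference, at 62.3 CPM in nickel-free shoot, 4.85 CPM in nickel shoot, 8.78 CPM in nickel-free root and 11.5 CPM in nickel root. It was 12.8-fold lower in the shoot with nickel by the ratio without an added value (95% interval 11.7 to 14.1). It was 7.10-fold higher in shoot than root without nickel and 2.37-fold higher in root than shoot with nickel.

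Some members were rich in root. In 9 members both root libraries had at least 200 CPM, a level chosen after the values were seen, and in 5 of these root was at least 2-fold above shoot without nickel. The share of comparison contigs at this level was not counted, so the 9 cannot be called many or few. The strongest root bias with nickel was in a member with 33.1 CPM in nickel-free shoot, 6.34 CPM in nickel shoot, 258.9 CPM in nickel-free root and 482.2 CPM in nickel root. It stood 76.1-fold higher in root than in shoot with nickel. The other 4 root-biased members of the 9 had 47.6 to 99.4 CPM in nickel-free shoot, 7.01 to 19.9 CPM in nickel shoot, and 232.5 to 374.0 CPM over both roots. The strongest root bias without nickel was in a member with 19.2 and 3.06 CPM in shoot without and with nickel, and 258.5 and 182.4 CPM in root without and with nickel, so it was not among the 9. The members with the strongest root bias with and without nickel had root ratios in opposite directions. Picking each by the root level of its own condition favours this, and the rule fixed the lower shoot with nickel in both.

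At the other end, 3 members were at least 2-fold higher in shoot in both conditions. The second most abundant member of all had 543.8 CPM in nickel-free shoot, 125.7 CPM in nickel shoot, 6.30 CPM in nickel-free root and 7.47 CPM in nickel root. The member with the highest shoot-to-root ratio had 16.3 CPM in nickel-free shoot and 3.75 CPM with nickel, and its root levels rested on 5 reads without and 6 reads with nickel. Its root ratio had a counting interval from 0.328 to 5.34, so the 2-fold bounds of the rule were not resolved for it at this depth. The third had 24.5 and 2.16 CPM in shoot without and with nickel, and 2.04 and 0.988 CPM in root. The lowest read count of any member in the shoot with nickel was 212.

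The root ratio was bounded by the rule to within 2-fold, but its direction was not. It was higher with nickel, with a counting interval above 1, in 27 members (54%), where 35.9% of the comparison contigs were. It was lower in 18 members (36%), where 32.1% of the comparison contigs were. Both shares were above those of the comparison contigs. The interval held 1 in 5 members. By direction alone, the root ratio was above 1 in 30 members (60%) and in 52.4% of the comparison contigs. With TMM or DESeq2 size factors it was above 1 in 25 members each, beside 3395 and 3501 of the 12252 comparison contigs. The median log2 ratio in root was 0.16 for the members and 0.015 for the comparison contigs. This direction depended on the scaling, since TMM and DESeq2 size factors gave 21 members higher each and 23 and 22 lower. Of the comparison contigs, 15.7% were then higher and 57.2% lower by TMM. By DESeq2 size factors 16.2% were higher and 56.2% lower. Among the 18 members with roots above both shoots, 15 were higher and 3 lower in root with nickel, with a median log2 ratio of 0.39. Of the 5347 comparison contigs with that order of libraries, 27.7% were higher and 42.9% lower. With TMM or DESeq2 size factors, 12 of these 18 members were higher, beside 9.82% and 10.2% of those contigs. Of the 11 members at least 2-fold higher in root without nickel, 9 were higher and 2 lower in root with nickel, where 21.3% of the 2287 comparison contigs with that organ bias were higher and 60.1% lower. With TMM or DESeq2 size factors 6 of the 11 were higher, beside 9.05% and 9.31% of those contigs. Of the 22 shoot-biased members, 9 were higher and 10 lower in root with nickel, where 44.3% of the shoot-biased comparison contigs were higher and 19.7% lower. With TMM or DESeq2 size factors 7 of the 22 were higher and 11 lower. Of those comparison contigs, 25.1% were then higher and 35.6% lower by TMM, and 25.6% and 35.2% by DESeq2 size factors, so their balance turned. The differences between these shares were not tested, because each group had 1 library.

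Some members had nearly proportional levels over the 4 libraries. Profiles were compared as log2(CPM + 0.1) centred on the mean of each contig. Of 1225 pairs of members, 17 differed by less than 0.2 in every library. The closest pair differed by at most 0.055; one of its contigs had 58.4, 10.9, 17.7 and 16.04 CPM and the other 18.7, 3.38, 5.53 and 5.30 CPM, in the order shoot without, shoot with, root without and root with nickel. The second closest pair differed by at most 0.073 and was root-biased, with 80.1, 14.2, 297.3 and 374.0 CPM in one contig and 65.5, 12.3, 236.3 and 305.0 CPM in the other. A single pair carried consecutive contig numbers, and it ranked 16 of the 1225 with a largest difference of 0.17. Its contigs had 34.8 and 26.4 CPM in nickel-free shoot and 8.27 and 5.54 CPM with nickel. Whether such pairs are alleles, copies or parts of 1 transcript was not tested, and reads shared between near-identical contigs would make their values uncertain. The similarity is a description, since the rule held every member to the same limits.

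Beyond the root bounds, 13 contigs met the remaining limits of the rule. Their log2 ratios in root ran from -2.87 to 2.28, and their median log2 ratio in shoot was -2.72. Members and these contigs were separated by the root limit only, and nothing else is drawn from the comparison.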

How the data were processed

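RNA-seq libraries of root and shoot, without and with nickel, were analysed, 1 per group. Per the labels' protocols, RNA was extracted with TRIzol LS, treated with DNase and made into stranded polyA libraries with an Illumina TruSeq kit. Per the file headers, the deposited values are raw read counts per contig of 1 library each. Aligner, counter and assembly were not given in the sources used here.

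Counts were divided by the column total and multiplied to CPM, with 0.1 CPM added before ratios that define the members. Ratios of single members were taken without it, except the smallest and largest differences and the ratios set beside the limits of the rule. Intervals are exact (conditional binomial, Clopper-Pearson, 95%) and cover counting error only. Counts from 1 to 20 were even in 55.5% to 61.6% of cases, so intervals may be too narrow if both reads of a pair were counted. No test was run, for want of replicates. Members, limits and patterns were chosen with earlier results of these data known. For contigs without names, 2 identifiers are printed, the most abundant member of each pattern in which 1 shoot library stood apart. Alternatives were TMM (edgeR 4.0.16), DESeq2 1.42.0 size factors, other added values, thinning to the smallest total and other limits. Dropping the root bounds was added after the data were seen. Calculations used Python 3.11.15, scipy 1.17.1 and R 4.3.3 and were tested on simulated data.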

Additional observations from a re-analysis of the deposited data

Results flagged for a closer look

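In 27 members the nickel difference had opposite directions in the organs, lower in shoot and higher in root with nickel, with each counting interval excluding 1. The lower level in shoot was fixed by the rule, and no test compared the organs, so the difference was not tested. Of the 12252 comparison contigs, whatever their shoot ratio, 35.9% were higher in root by the same interval. By direction alone, the root ratio was above 1 in 30 members (60%) and in 52.4% of those contigs. With the interval, the number was 21 members with TMM, beside 15.7% of those contigs, and 21 with DESeq2 size factors, beside 16.2%.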

How the results depend on the processing

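Of 60 recalculations, 34 stayed within 1.5 times a count or within a set width of a median log2 ratio. That width (0.12 in shoot, 0.087 in root) was the median half-width of the members' counting intervals. It is the counting error of a typical single member, not of the median over the members. The values below are members, those with the nickel shoot apart, those with the nickel-free shoot apart and those with a turned organ order (50, 4, 3 and 6 as reported). TMM gave 80 members, 10 with the nickel shoot apart and 10 turned. DESeq2 size factors gave 96, 17, 9 and 14. These scalings moved the median log2 shoot ratio of the 12620 abundant contigs from 0.087 to -0.17 and -0.29, and 47 and 46 of the 50 were shared. A minimum of 5 CPM gave 77 members and 9 with the nickel shoot apart, 20 CPM gave 27 and 1, and no minimum gave 489, 120, 20 and 63 with a median shoot ratio of -2.68. An 8-fold limit left 3 members, 0, 0 and 1 in the patterns, a median shoot ratio of -3.44 and a median root ratio that turned from 0.16 to -0.61. With 0.5 CPM added the median root ratio was 0.059. With 1 CPM added it was 0.022, with 6 members having the nickel-free shoot apart and 3 turned. Of the 50 members, 46 were kept among 51 with 0.5 CPM added, and only 38 among 47 with 1 CPM added. Thinning left 49 of the 50. Without the root bounds there were 63 members. Each group would vanish with its only library, so none was left out. No paired analysis was possible because each group had 1 library.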
